A study of Mus musculus with 12 samples.

Results

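The probes described here are those of 9 genes of the complement system and its relatives: C1qa, C1qb, C1qc, C2, C4b, C3, Cfb, Serping1 and C1ql2. They were chosen as the probes, other than control spots, whose gene name in the deposited array files is one of these symbols, 9 of the 29608 gene names on the array. These had 11 of its 39429 probes, and 10 of the 11, of 8 genes, were among the 22419 probes retained after a filter on dim and marked spots. The study asked how the cortex of lupus-prone mice differs with and without Fn14, the receptor of the cytokine TWEAK, and profiled 12 female mice of about 12 weeks, 4 in each of 3 groups, all in diestrus. MRL/lpr mice carry the lpr mutation of the death receptor gene Fas on the MRL background and develop a lupus-like disease. Fn14ko mice carry the same lpr mutation and in addition lack Fn14 (gene Tnfrsf12a). They were littermates of the MRL/lpr mice, while the MRL/+ controls (MRL/MpJ, without the lpr mutation) were purchased from another source. The 6 arrays were hybridised in both colours with a pair of mice from one group, odd replicate numbers labelled with Cy3 and even ones with Cy5. Because every group had a slide of its own, effects of slide and genotype cannot be told apart.

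Complement is a cascade of plasma and tissue proteins. In the classical branch C1q, built from the chains of C1qa, C1qb and C1qc, binds its target, and C4 and C2 are then cleaved to form the enzyme that cuts C3. In the alternative branch factor B (Cfb) forms the C3-cutting enzyme, and Serping1, the C1 inhibitor, restrains the proteases of C1. In the brain C1q is made mainly by microglia and marks synapses for removal. C1ql2 shares the globular domain of C1q but is a secreted synaptic organiser, known from the mossy fibres of the dentate gyrus, and takes no part in the cascade.

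The sequences of 6 of the 60-base probes are shown because the differences below rest on what these single probes bound. They are written 5′ to 3′ as in the array files, in lower case throughout since no part of a probe is singled out, and positions are those of the files in mm9 (NCBI build 37).
C1ql2: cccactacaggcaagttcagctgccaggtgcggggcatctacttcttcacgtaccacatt
C3 probe 2: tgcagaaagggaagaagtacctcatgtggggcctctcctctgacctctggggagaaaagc
Serping1 probe 1: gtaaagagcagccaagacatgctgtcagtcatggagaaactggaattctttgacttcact
Cfb: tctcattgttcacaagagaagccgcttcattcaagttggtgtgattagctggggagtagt
C1qa: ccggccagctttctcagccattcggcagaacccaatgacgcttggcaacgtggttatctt
C1qb: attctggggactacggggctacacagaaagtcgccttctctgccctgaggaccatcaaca
The C1ql2 probe lies on the plus strand at chr1:122238262-122238321. The others lie on the minus strand, C3 probe 2 at chr17:57343678-57343737, C1qa at chr4:136452409-136452468 and C1qb at chr4:136436578-136436637. The Cfb probe spans 357 bases of the genome at chr17:34993502-34993858 and Serping1 probe 1 spans 1507 bases at chr2:84605968-84607474, both more than the probe's own length, so that each crosses a splice junction.

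The probes of the 3 C1q chains fall within 15.9 kb of chromosome 4. Those of C2, Cfb and C4b fall within 134 kb of chromosome 17, C2 and Cfb within 6.13 kb. C3 is also on chromosome 17, with probe 1 at chr17:57343416-57343475. C1qc and C3 probe 1 were each printed on 10 spots, of which 9 and 6 were retained after spots marked by the scanner software were dropped. The other probes had 1 spot each. No probe of C4a, the near-identical copy of C4b, carries that name on this array, and whether the C4b probe also bound C4a RNA is uncertain.

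Signals below are background-corrected intensities in units of the median retained spot of the same channel, so that 1 is the level of the median spot, and they are compared between mice and not between probes. For the targeted gene, Tnfrsf12a signals lay between 1.38 and 1.90 in MRL/lpr, 0.604 and 0.777 in Fn14ko and 0.943 and 1.28 in MRL/+. It was lower in Fn14ko than in MRL/lpr (log2 difference of MRL/lpr over Fn14ko 1.27 ± 0.20 (SE, n = 4 per group), limma adjusted p = 0.00351), and whether its probe lies in the deleted part is not given in the sources used here. The Cy5 channels of MRL/+ stood apart. Of the probes other than controls, 35.0% and 21.2% of spots were called well above background there, against 56.6% to 70% in the other 10 channels, and the median dark or negative control spot reached 0.693 and 0.811 of the channel's median, against 0.0472 to 0.339 elsewhere. The level of these dark spots is the floor against which dim members must be read.

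**Figure D1:**
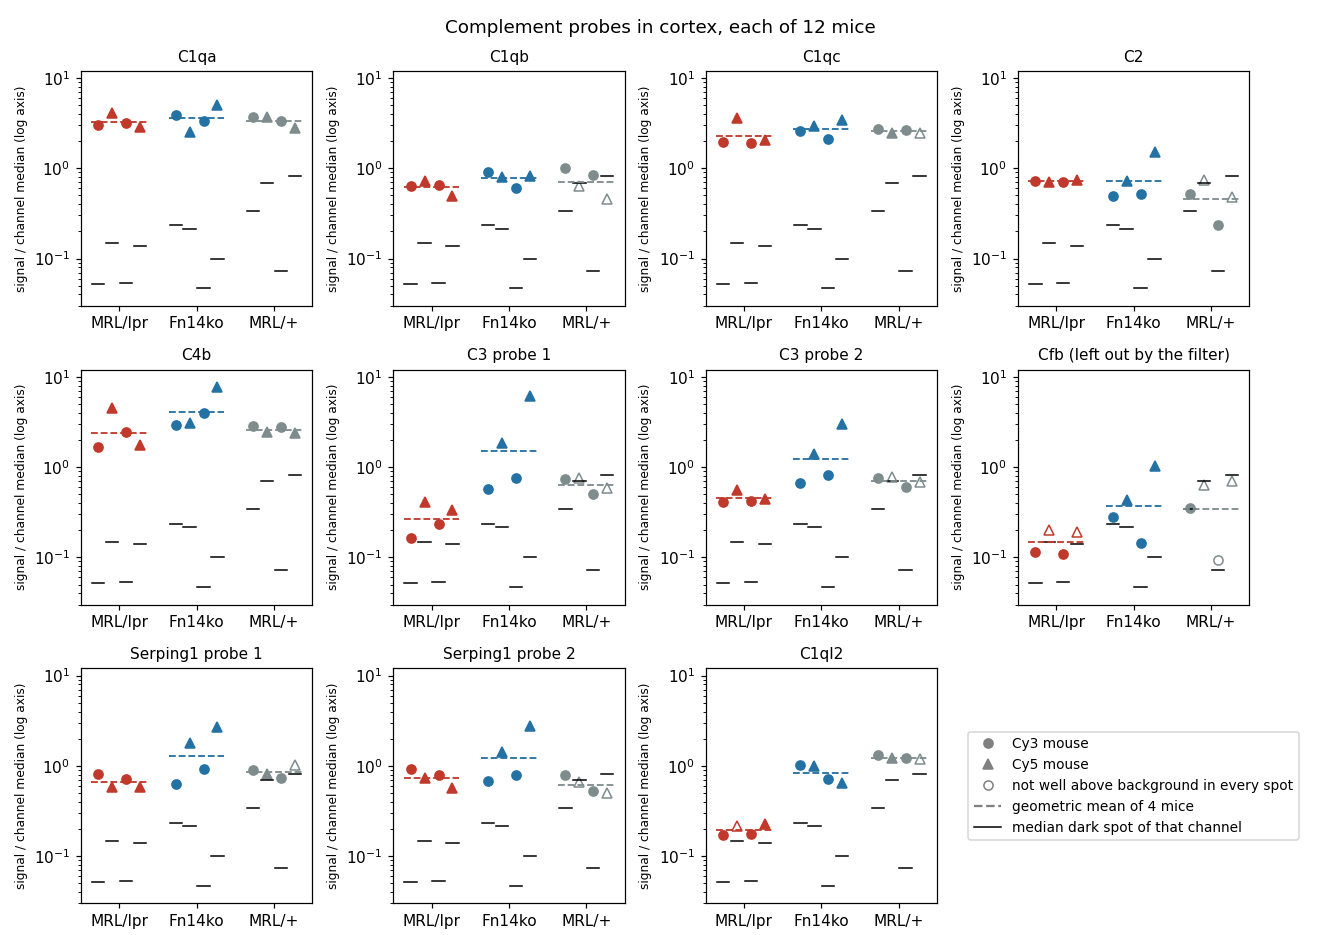
Signal of each complement probe in each mouse, in units of the channel's median retained spot on a log axis. Circles are Cy3 and triangles Cy5 mice, dashed lines the geometric means of 4 mice, short black bars the median dark spot of each channel and open symbols spots not well above background; the 4 MRL/lpr mice are between 0.173 and 0.225 for C1ql2, under every mouse of the other groups.

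C1ql2 was the member with the clearest difference. Its signals were 0.173, 0.218, 0.178 and 0.225 in MRL/lpr replicates 1 to 4, 1.03, 1.00, 0.715 and 0.650 in Fn14ko, and 1.32, 1.21, 1.22 and 1.18 in MRL/+. Every MRL/lpr mouse was below every other mouse, and the Fn14ko mice all lay below the MRL/+ mice. Against MRL/+, C1ql2 fell in MRL/lpr by 2.64 ± 0.21 on the log2 scale (SE, 6.24-fold, limma adjusted p = 5.28e-05), and against Fn14ko it fell by 2.08 ± 0.21 (4.23-fold, limma adjusted p = 0.00027). The Fn14ko difference from MRL/+ was -0.56 ± 0.21 and did not pass (adjusted p = 0.157, 95% interval -1.01 to -0.11). In each of these comparisons the groups did not overlap, and the exact 2-sided permutation test gave p = 0.0286, the smallest that 4 mice against 4 allow.

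The dim end of this difference was close to the floor. The probe was called well above background in 3 of 4 MRL/lpr mice, 4 of 4 Fn14ko mice and 3 of 4 MRL/+ mice, and the MRL/lpr signals were 1.49 to 3.36 times the dark spots of their own channels, and those of the Cy5 mice of MRL/+ 1.45 and 1.74 times. The size of the fold moved with the background, since with that of the control spots the log2 differences were -3.72 from MRL/+ and -2.82 from Fn14ko. With the Cy3 mice alone, 2 against 2, the difference of MRL/lpr from MRL/+ was -2.85 (adjusted p = 5.63e-05) and from Fn14ko -2.29 (adjusted p = 0.00057), so the difference was as large there as over all mice. Leaving out each mouse in turn kept both differences past the threshold, between -2.71 and -2.57 and between -2.20 and -1.99. With no filter on dim probes the values were -2.04 (adjusted p = 0.0846) and -2.21 (adjusted p = 0.0605), and neither passed, and by the methods' t-test the difference from Fn14ko did not pass after adjustment (adjusted p = 0.102).

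The labelled tissue is cortex, while C1ql2 is known to be expressed in granule cells of the dentate gyrus. Lct, from the list of markers of those cells, had signals of 0.558, 0.506, 0.482 and 0.546 in MRL/lpr, 2.22, 3.95, 2.33 and 3.97 in Fn14ko, and 3.62, 2.20, 3.24 and 0.745 in MRL/+. Lct was lower in MRL/lpr than in MRL/+ (log2 difference -2.01, adjusted p = 0.0237) and than in Fn14ko (-2.52, adjusted p = 0.0157). Of the 5 genes of the list 2 had a retained probe, and the other one was not called in any comparison. In MRL/+ replicate 4 Lct, at 0.745, lay below the dark spots of its channel, at 0.811. C1ql2, at 1.18, was 1.45 times those dark spots and not well above background there. So near the floor, the levels of Lct and C1ql2 in that mouse cannot be compared. The summed signal of the 2 retained probes of the list was 0.931 to 1.16 in MRL/lpr, 2.81 to 4.64 in Fn14ko and 1.22 to 4.34 in MRL/+. The other 3 genes were too dim for the filter, and by their brighter probe were well above background in 0 to 2 of 4 MRL/lpr, 4 of 4 Fn14ko and 2 to 3 of 4 MRL/+ mice. The part of the dissected region in the C1ql2 difference was not tested. In bulk tissue, fewer cells of a type and less RNA per cell cannot be told apart.

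Of the other C1q-like genes, C1ql1 and C1ql3 had retained probes, which were not called in any comparison, and C1ql4 was well above background in 0 of 12 mice. The named genes whose log2 signals followed C1ql2 most closely over the 12 mice, after the mean of each dye was removed, were Farsa (Pearson r = 0.991), Gstm7 (r = 0.991) and Exoc3 (r = 0.989). The mice of a group share a slide, and these values describe the same group difference as C1ql2 itself.

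C3, the component on which all branches meet, was lower in MRL/lpr than in Fn14ko by both probes. Probe 1 gave 0.166, 0.409, 0.234 and 0.330 in MRL/lpr replicates 1 to 4, 0.577, 1.84, 0.759 and 6.15 in Fn14ko, and 0.737, 0.749, 0.505 and 0.579 in MRL/+. The highest MRL/lpr mouse was below the lowest mouse of both other groups, and the Fn14ko mice ranged 10.7-fold among themselves, with replicates 2 and 4, the Cy5 mice, far above replicates 1 and 3. Probe 2 gave 0.411, 0.552, 0.417 and 0.441 in MRL/lpr, 0.672, 1.39, 0.808 and 3.01 in Fn14ko, and 0.758, 0.771, 0.603 and 0.677 in MRL/+, with the same order of groups and of Fn14ko mice.

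The fall of C3 in MRL/lpr against Fn14ko was 2.47 ± 0.56 on the log2 scale for probe 1 (5.55-fold, limma adjusted p = 0.0243) and 1.44 ± 0.37 for probe 2 (2.72-fold, limma adjusted p = 0.0488). For both, the exact permutation p was 0.0286. The 6 retained spots of probe 1 differed within a mouse by a coefficient of variation of 2.78% to 26.2%, which covers the spots of 1 channel only and says nothing of dye, array or labelling. In the Cy3 mice alone the probe 1 difference was -1.75 (adjusted p = 0.0147) and the probe 2 difference -0.83 (adjusted p = 0.0992). Without Fn14ko replicate 4 probe 1 stayed past the threshold, but its call was lost without MRL/lpr replicate 1 (adjusted p = 0.06), Fn14ko replicate 2 (0.0948), MRL/+ replicate 3 (0.0916) or MRL/+ replicate 4 (0.107). Probe 2 lost its call without MRL/lpr replicate 1, 2 or 4, Fn14ko replicate 2 or MRL/+ replicate 3 or 4 (adjusted p = 0.0707 to 0.195), so that of the 12 fits that each left out 1 mouse 8 called probe 1 and 6 called probe 2. With no filter on dim probes neither passed (-2.60, adjusted p = 0.293, and -1.57, adjusted p = 0.528). By the methods' t-test neither passed, whether unadjusted or after adjustment (adjusted p = 0.47 and 0.399). Probe 2 was also not called with the background taken from the control spots (adjusted p = 0.15), marked spots kept (0.0581), no dye term (0.0596), only the groups compared (0.096) or without the Cy5 mice of MRL/+ (0.12).

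Against MRL/+ neither C3 probe passed. The MRL/lpr differences were -1.24 ± 0.56 (adjusted p = 0.13) and -0.63 ± 0.37 (adjusted p = 0.229), with groups that did not overlap. The Fn14ko differences were 1.23 ± 0.56 (adjusted p = 0.209) and 0.81 ± 0.37 (adjusted p = 0.216), with groups that overlapped. In the Cy5 mice of MRL/+ both C3 probes were not well above background and lay at 0.714 to 1.11 times the dark spots, so the C3 level of MRL/+ rests on 2 mice. In the Cy3 mice alone MRL/lpr was lower than MRL/+ by probe 1 (-1.63, adjusted p = 0.00936) and not by probe 2 (-0.71, adjusted p = 0.0952). Probe 1 also passed with the 75th percentile (adjusted p = 0.0433), no array block (0.0435), only the groups compared (0.0347) or without Fn14ko replicate 4 (0.022). With the background taken from the control spots, probe 2 was at 0.31 in MRL/lpr against MRL/+ (adjusted p = 0.709), the opposite sign.

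Serping1 repeated the pattern of the Fn14ko mice without a call between groups. Probe 1 gave 0.814, 0.579, 0.708 and 0.588 in MRL/lpr, 0.624, 1.81, 0.928 and 2.72 in Fn14ko, and 0.892, 0.815, 0.731 and 1.02 in MRL/+. Probe 2, at chr2:84605663-84605722, gave 0.919, 0.733, 0.785 and 0.565 in MRL/lpr, 0.677, 1.44, 0.798 and 2.80 in Fn14ko, and 0.803, 0.656, 0.531 and 0.495 in MRL/+. By both probes Fn14ko replicates 2 and 4 were the highest of all 12 mice, and replicates 1 and 3 lay within the range of the other groups. The MRL/lpr difference from Fn14ko was -0.97 ± 0.43 (adjusted p = 0.265) and -0.72 ± 0.46 (adjusted p = 0.468). Against MRL/+ no difference passed. The probes disagreed in sign for MRL/lpr (-0.37, adjusted p = 0.546, and 0.28, adjusted p = 0.674). Fn14ko was at 0.60 (adjusted p = 0.36) and 0.99 (adjusted p = 0.215). Probe 2 passed for Fn14ko with the background taken from the control spots (2.31, adjusted p = 0.045), and probe 1 did not. The Cy5 mice of MRL/+ lay at 1.18 and 1.25 times the dark spots by probe 1, and 0.947 and 0.61 by probe 2. By probe 2 neither was well above background.

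The factor B gene Cfb was the member left out by the filter, because its foreground was 1.95 times the local background in MRL/+ replicate 3. On the same scale its signals were 0.114, 0.202, 0.108 and 0.192 in MRL/lpr, 0.282, 0.431, 0.145 and 1.02 in Fn14ko, and 0.352, 0.625, 0.0939 and 0.702 in MRL/+. It was well above background in 2 of 4, 4 of 4 and 1 of 4 mice, and the MRL/+ signals were 0.865 to 1.28 times the dark spots, which gives no level for that group beyond the floor. Fn14ko replicate 4 was again the highest mouse, at 10.2 times its dark spots. With no filter the fit gave -1.43 ± 0.51 for MRL/lpr against Fn14ko (adjusted p = 0.366) and passed the threshold in none of the 3 comparisons.

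Markers of the meninges moved with C3 and Serping1 among the Fn14ko mice. Dcn, a proteoglycan of fibroblasts, had signals of 3.65, 9.01, 4.56 and 13.3 in Fn14ko replicates 1 to 4, against 1.51 to 2.35 in MRL/lpr and 2.42 to 6.35 in MRL/+. Col3a1, a fibrillar collagen, had 0.359, 0.868, 0.347 and 1.5 in Fn14ko. All 5 genes of the meningeal list had a retained probe, limma called none (at an unadjusted p under 0.05, 1 in MRL/lpr against MRL/+ and 2 against Fn14ko), and their summed signal was 4.27 to 5.78 in MRL/lpr, 5.87 to 20.6 in Fn14ko and 4.95 to 8.48 in MRL/+.

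The sum was 13.5 and 20.6 in Fn14ko replicates 2 and 4 and 5.87 and 7.04 in replicates 1 and 3. The choroid plexus list, with 5 of its 6 genes retained, summed to 125 and 187 in Fn14ko replicates 2 and 4 and to 67.4 and 14.6 in replicates 1 and 3, against 7.76 to 102 in MRL/lpr and 18.0 to 272 in MRL/+. Most of that sum was 1 probe, Ttr, at 104 and 159 in Fn14ko replicates 2 and 4 and 249 in MRL/+ replicate 4. Of the 7 probes of the choroid plexus list 1, Clic6, was lower in MRL/lpr than in MRL/+ (-2.51, adjusted p = 0.0465). Against Fn14ko, where Clic6 was at -2.96 (adjusted p = 0.0514), limma called 0 (3 at an unadjusted p under 0.05) with a median of -1.87 beside -0.08 over all probes. Of 13 astrocyte probes 1 of the 3 of Gfap, the intermediate filament of astrocytes, named after its values were seen, was lower in MRL/lpr than in Fn14ko (-1.13, adjusted p = 0.00804) and than in MRL/+ (-1.16, adjusted p = 0.00356), while the mean of its 3 probes was not called (adjusted p = 0.201 and 0.363). The part of meningeal, choroid or astrocyte RNA, or of the dye, in the C3 and Serping1 values was not tested. Rcn3 was the named gene most like C3 over the 12 mice by both probes (r = 0.976 and 0.973, n = 12), followed for probe 1 by Susd6 (r = 0.951) and Dock11 (r = 0.945) and for probe 2 by Plppr4 (r = 0.956) and Susd6 (r = 0.941). Those most like Serping1 probe 2 were Ogn (r = 0.946), Cp (r = 0.937) and Col3a1 (r = 0.931), and those most like probe 1 were Serpina1c (r = 0.931), Rev3l (r = 0.920) and Bicc1 (r = 0.911).

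**Figure D2:**
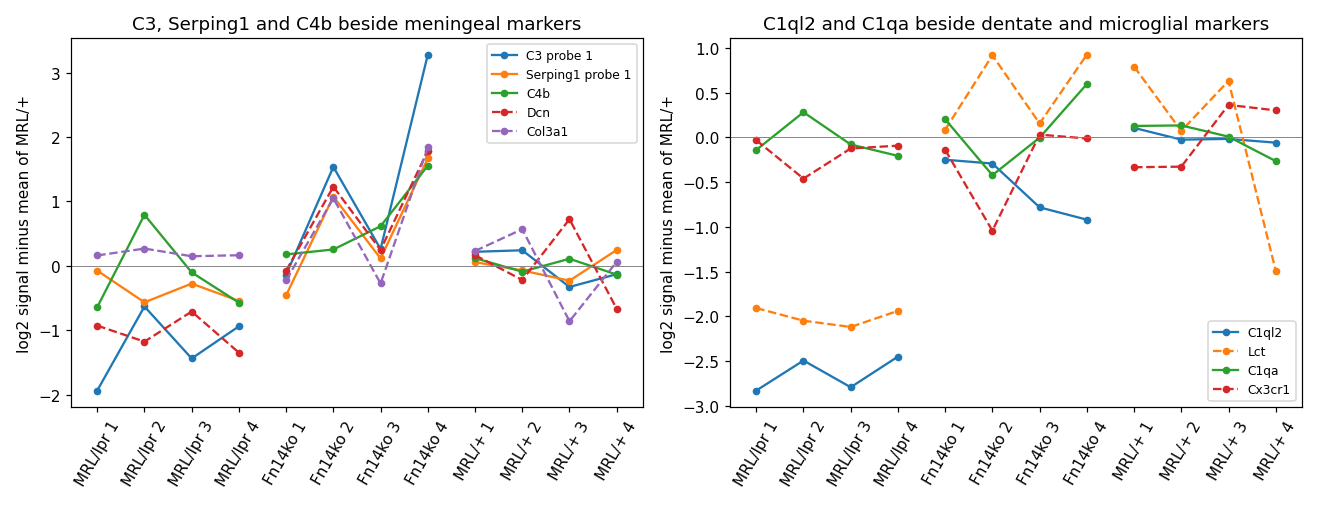
Log2 signal in each mouse minus the mean of the 4 MRL/+ mice, for complement probes (solid lines) and markers of meninges, dentate gyrus and microglia (dashed lines). For Cx3cr1 the line is that of 1 of its 3 probes, the one with a log2 difference of -0.18 in MRL/lpr against MRL/+. Its other probes were at 0.54 and 1.07. In Fn14ko replicates 2 and 4 the lines of C3, Serping1, Dcn and Col3a1 stand highest, and in MRL/lpr C1ql2 and Lct stand lowest; the lines join mice of a group for reading only, as mice have no order.

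C4b and C2, the substrates of C1, showed no difference that passed. C4b had signals of 1.67, 4.51, 2.43 and 1.75 in MRL/lpr, 2.94, 3.10, 3.99 and 7.65 in Fn14ko, and 2.83, 2.44, 2.81 and 2.37 in MRL/+, well above background in all 12 mice. All Fn14ko mice lay above all MRL/+ mice, with a log2 difference of 0.65 ± 0.40 (adjusted p = 0.306, exact permutation p = 0.0286), and the MRL/lpr mice ranged 2.70-fold, overlapping both. The C4b probe lies at chr17:34865328-34865387 and the C2 probe at chr17:34999575-34999634.

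C2 was close to constant in MRL/lpr, with 0.729, 0.700, 0.711 and 0.743. It was 0.489, 0.717, 0.516 and 1.5 in Fn14ko and 0.521, 0.747, 0.233 and 0.481 in MRL/+, where it was well above background in the 2 Cy3 mice only. The difference of both lpr groups from MRL/+ was 0.66 ± 0.36, and neither passed (adjusted p = 0.198 and 0.266). With the background taken from the control spots the values were 1.98 (adjusted p = 0.0104) and 1.87 (adjusted p = 0.0313), and MRL/lpr against MRL/+ also passed with Agilent's processed signal (1.64, adjusted p = 0.0263) and with loess and Aquantile (0.93, adjusted p = 0.0414). The genes most like C4b were Rprm (r = 0.934), Xpa (r = 0.933) and Tap2 (r = 0.888), and those most like C2 were Lrg1 (r = 0.893), Larp7 (r = 0.891) and Lama1 (r = 0.888).

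None of the 3 chains of C1q was called between groups. C1qa gave 3.03, 4.06, 3.16 and 2.89 in MRL/lpr, 3.84, 2.49, 3.33 and 5.05 in Fn14ko, and 3.65, 3.66, 3.36 and 2.78 in MRL/+. The groups overlapped throughout, with log2 differences of -0.04 ± 0.26 for MRL/lpr against MRL/+ (95% interval -0.61 to 0.54, adjusted p = 0.928), 0.09 for Fn14ko against MRL/+ (interval -0.48 to 0.66) and -0.13 for MRL/lpr against Fn14ko (interval -0.70 to 0.44).

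C1qb gave 0.630, 0.721, 0.660 and 0.494 in MRL/lpr, 0.908, 0.798, 0.601 and 0.83 in Fn14ko, and 1.02, 0.636, 0.835 and 0.459 in MRL/+, where the 2 Cy5 mice were not well above background. C1qc, at chr4:136445766-136445825, gave 1.96, 3.58, 1.88 and 2.03 in MRL/lpr, 2.58, 2.91, 2.10 and 3.40 in Fn14ko, and 2.72, 2.48, 2.65 and 2.44 in MRL/+. MRL/lpr replicate 2 stood above the rest of its group in C1qc, and it was also the highest of that group in C1qa, C1qb and C4b. For C1qb and C1qc no adjusted p was under 0.617, and the largest log2 differences were -0.32 and -0.25, both for MRL/lpr against Fn14ko. Their 95% intervals reached from -0.92 to 0.74 over the 3 comparisons and do not show that the groups had the same level.

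Under the background taken from the control spots C1qa and C1qc were lower in MRL/lpr than in MRL/+ (-0.83, adjusted p = 0.0374, and -0.91, adjusted p = 0.0145). Markers of microglia are set beside these chains, and their part in the C1q values was not tested. All 10 genes of the list had retained probes, 14 in number, with a median log2 difference of 0.36 in MRL/lpr against MRL/+ beside -0.15 over all probes. At an unadjusted p under 0.05 there were 7 of 14, beside 8017 of all 22419 probes, and limma called 1, beside 15.0% of all probes. The called probe was that of Aif1, higher in MRL/lpr than in MRL/+ (1.17 ± 0.32 on the log2 scale, adjusted p = 0.0275, and 0.61, adjusted p = 0.175, without the Cy5 mice of MRL/+). The 3 probes of the fractalkine receptor gene Cx3cr1 disagreed in sign, at -0.18 (adjusted p = 0.652), 0.54 (adjusted p = 0.112) and 1.07 (adjusted p = 0.0511), and the summed signals were 40.3 to 60.2, 41.8 to 51.2 and 32.8 to 47.0 in MRL/lpr, Fn14ko and MRL/+. The named genes most like C1qa were Slc33a1, Tvp23b and Trappc13 (r = 0.842, 0.840 and 0.790), those most like C1qb Reep3, Prkca and Abracl (r = 0.966, 0.924 and 0.888), and those most like C1qc Gmppb, Creb3 and Mas1 (r = 0.871, 0.867 and 0.863).

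**Figure D3:**
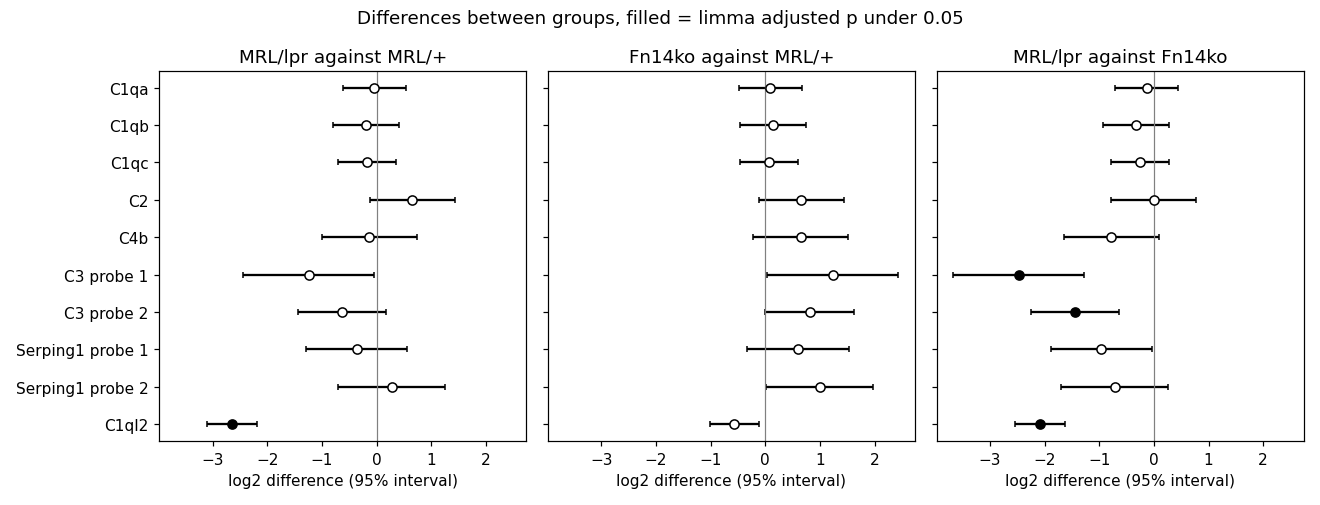
Log2 difference of each retained complement probe with its 95% interval, in the 3 comparisons. Filled points passed a limma adjusted p of 0.05, which were C1ql2 in MRL/lpr against MRL/+ and C1ql2 and both C3 probes in MRL/lpr against Fn14ko.

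Counted over the retained probes, 1 of 10 was called in MRL/lpr against MRL/+, where 15.0% of all probes were called, and 3 of 10 did not overlap between groups, where 24.8% of all probes did not. The called probe was that of C1ql2, which takes no part in the cascade. In Fn14ko against MRL/+, limma called 0 of 10, beside 1.09% of all probes, and 2 of 10 did not overlap, beside 14.0%. At an unadjusted p under 0.05 there were 4 of 10, beside 5166 of all 22419 probes. In MRL/lpr against Fn14ko, 3 of 10 probes, of the 2 genes C1ql2 and C3, were called, beside 4.03% of all probes, and 3 of 10 did not overlap, beside 19.5%. All 10 log2 differences in that last comparison were below 0, with a median of -0.75 against -0.08 over all probes. They reached from -2.47 for C3 probe 1 to -0.001 for C2, and C3 and Serping1 entered with 2 probes each. The shared sign did not hold when single mice were left out. Without Fn14ko replicate 4, C1qa was at 0.056 and C2 at 0.279, while the other probes stayed below 0. C2 was also above 0 without MRL/lpr replicate 2 (0.154) or 4 (0.119). The medians were -0.18 against -0.15 over all probes for MRL/lpr against MRL/+ and 0.62 against -0.14 for Fn14ko against MRL/+. These comparisons share their mice in pairs and are not independent. Across the 12 mice, with dye means removed, the probes of C3 correlated at r = 0.987 and those of Serping1 at r = 0.850, C3 probe 2 with Serping1 probe 1 at r = 0.900 and C1qb with C1qc at r = 0.847.

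In the rest of the pathway, most probes of the lectin branch and of the terminal components were left out by the filter. Of 51 other genes of the complement lists on the array, among them C1ql1, C1ql3 and C1ql4, 24 had retained probes, 30 in number. Of these probes 3 were higher and 3 lower in MRL/lpr compared with MRL/+, 20% beside 15.0% of all probes. Limma called 0 in the other 2 comparisons. At an unadjusted p under 0.05 there were 6 in each, beside 5166 of all 22419 probes in Fn14ko against MRL/+ and 3883 in MRL/lpr against Fn14ko. Of the 13 probes of the lectin branch, 2 were retained, and of the 10 probes of the terminal components that form the membrane pore, 3 were. The genes higher in MRL/lpr were Cfp, properdin, which stabilises the alternative C3 convertase (0.86 ± 0.21, adjusted p = 0.0176), Vtn, vitronectin, an inhibitor of the membrane pore (1.17 ± 0.34, adjusted p = 0.0383), and 1 probe of Csmd1, a membrane protein that restrains complement (0.55 ± 0.17, with an adjusted p just under the threshold of 0.05). The second Csmd1 probe had the opposite sign and was not called (-0.65, adjusted p = 0.246). Vtn was about as far from MRL/+ in Fn14ko, though not called (1.25, adjusted p = 0.0914), and was at -0.09 in MRL/lpr against Fn14ko.

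Cfp signals were 1.17, 1.33, 1.21 and 0.987 in MRL/lpr, 0.709, 0.646, 0.971 and 0.775 in Fn14ko, and 0.585, 0.704, 0.550 and 0.757 in MRL/+, with no overlap between MRL/lpr and the rest. Those lower in MRL/lpr were 1 probe of C8g (-0.81, adjusted p = 0.0159), Cd55b, an inhibitor of convertases (-1.36, adjusted p = 0.037), and 1 probe of Itgam, a chain of complement receptor 3 (-1.14, adjusted p = 0.0246). Cd55b signals were 0.130 to 0.183 in MRL/lpr, and 0.605 and 0.571 in the Cy5 mice of MRL/+, below their dark spots at 0.693 and 0.811. The called Itgam probe was 0.299 to 0.374 in MRL/lpr and well above background in 2 of 4 MRL/+ mice. It was about as far from MRL/+ in Fn14ko, though not called (-1.15, adjusted p = 0.0785), and was at 0.01 in MRL/lpr against Fn14ko. The second Itgam probe, at 29.9 to 43.5 in MRL/lpr and well above background in 4 of 4 mice of each group, was not called (-0.30, adjusted p = 0.335). The called probes of C8g, Cd55b and Itgam each lost their call without the Cy5 mice of MRL/+ (adjusted p = 0.141, 0.254 and 0.218), as did Vtn and Csmd1 (adjusted p = 0.34 and 0.268), while Cfp did not (1.11, adjusted p = 0.0196). C8g took the opposite sign, 0.09, with the background taken from the control spots.

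**Figure D4:**
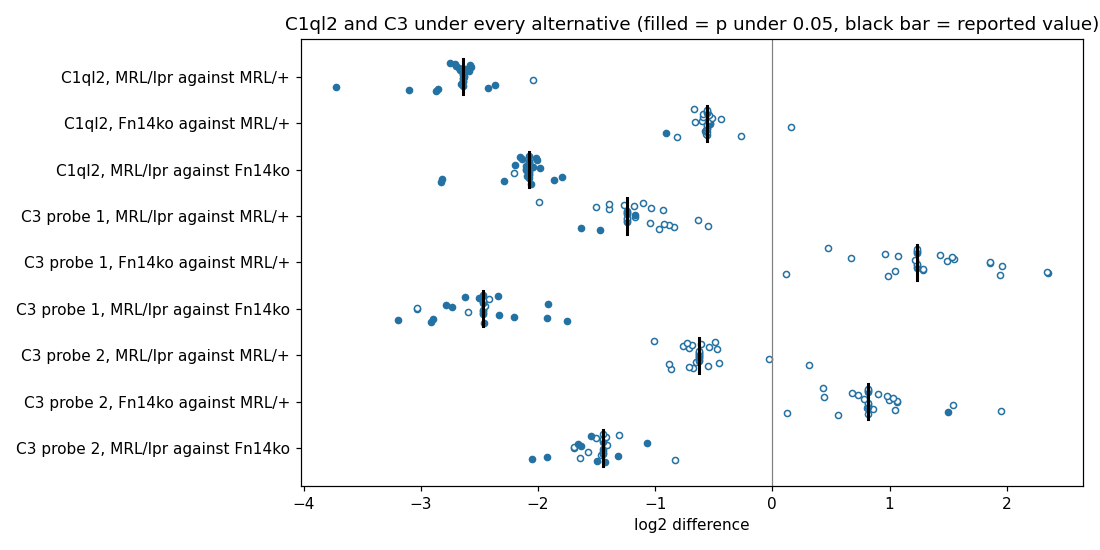
Log2 differences of C1ql2 and C3 in the 3 comparisons under each alternative processing (points, filled where p is under 0.05) beside the reported value (black bar). For C1ql2 all values of MRL/lpr against either group lie at or below -1.79, while those of C3 against MRL/+ scatter widely.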

How the data were processed

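Total RNA of each cortex was labelled and hybridised, 2 mice of a group per array, to Agilent 60-mer arrays. The deposited files hold, per the file headers, the scanner software's (Feature Extraction 12.1.0.3) mean foreground and median local background intensity of each spot in both channels, its processed signal, which was used as an alternative, and its quality flags, with no normalization between arrays. Here, of 43020 spots other than controls, a spot was dropped, after the methods, if the software had marked it as non-uniform or outlying in at least 1 sample (1952 spots) or if its foreground was less than 2 times its background in at least 1 sample, leaving 24255 spots. Background was corrected with normexp (offset 50) in limma 3.58.1 under R 4.3.3, each channel was divided by its median, and spots of a probe were averaged. Log2 values were fitted over all 22419 probes with group and dye, the array as a random block (correlation 0.325) and a variance trend, 2-sided, with Benjamini-Hochberg adjustment over all probes and a threshold of 0.05. Exact permutation tests used the 70 divisions of 8 mice. The fit was checked on simulated data. Probes were named by the files' gene names. All member probes were named, other complement genes where limma called them, the 3 most similar genes of each member, and at most 2 markers of a cell list. The number of mice limits the precision. The members and lists were chosen with earlier results of these data known.

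Alternatives covered the background, scale, filter, marked spots, fit, samples and test, and fits to the Cy5 mice alone were chosen after seeing the data.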

Additional observations from a re-analysis of the deposited data

Results flagged for a closer look

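Among the 30 sets of 4 mice (10 retained probes in 3 groups), 1 held a mouse far from the others of its group. For C1qc in MRL/lpr, replicate 2 had a signal of 3.58 while the other 3 mice lay between 1.88 and 2.03, and the gap to its nearest neighbour was 0.879 of the group's range on the log2 scale, above Dixon's critical value. Chance flags about 1 in 20 such sets. Over its 9 spots the probe ranged from 2.58 to 4.30 in that mouse.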

How the results depend on the processing

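Over the alternatives, 801 of 849 differences of single member probes kept their side of the threshold, 25 lost it, 23 gained it and none changed sign with a call on either side. In MRL/lpr against MRL/+, the 1 called member probe became 2 with Agilent's processed signal, loess and Aquantile, the 75th percentile, no array block, only the groups compared or Cy3 mice only, 3 with the methods' t-test unadjusted, 4 with the control-spot background, and 0 by limma with no filter on dim probes (2 at an unadjusted p under 0.05) or with probes well above background in all 12 samples, which left 3 member probes and neither C1ql2 nor C3. In Fn14ko against MRL/+, 0 became 1 with loess and Aquantile or the unadjusted t-test, 3 with the control-spot background and 4 in the Cy5 mice alone, both C3 and both Serping1 probes. In MRL/lpr against Fn14ko, 3 became 2 with the control-spot background, marked spots kept, no dye term, only the groups compared, without the Cy5 mice of MRL/+ or Cy3 mice only, each by the loss of C3 probe 2, and with gene means, where C3 counts once, 5 in the Cy5 mice, 1 with the unadjusted and 0 with the adjusted t-test, and 0 by limma with no filter (4 at an unadjusted p under 0.05) or with the strict filter (1). Leaving out single mice gave 1 to 2, 0 to 0 and 1 to 3. A replicate block in place of the dye left 1, 0 and 3 calls, but moved those over all probes from 3361, 245 and 903 to 7560, 1975 and 1832. Of same-numbered pairs, 8 of 12 correlated over 0.1 in their deviations from the group means (-0.13 to 0.72). In 13 of 24 matches of a mouse with another group, its own number was best. Same-numbered mice share a dye, which was not removed from these deviations, so the check cannot tell a pairing of mice from the dye. The main fit held the dye and not the numbers. Over all alternatives the calls over all probes ranged from 16 to 7560, 0 to 7044 and 38 to 4757, and the 75th percentile moved the median of all probes from -0.15 to -0.38 against MRL/+ in MRL/lpr and from -0.14 to -0.39 in Fn14ko. C8g took the opposite sign in MRL/lpr against MRL/+ with the processed signal (0.395) and the control-spot background (0.086), as did Cd55b in Fn14ko against MRL/+ with the latter (0.841). The cause was not tested. Dim members are limited by signal over background in the Cy5 mice of MRL/+.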

Other observations

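Of an interferon response list, 11 of 15 genes had a retained probe. Against MRL/+, limma called 2 of these, beside 15.0% of all probes, and both were higher in MRL/lpr. They were Stat2 (0.65 ± 0.15 on the log2 scale, adjusted p = 0.0156) and Irf9 (0.90 ± 0.22, adjusted p = 0.0163), both part of the complex that transmits type I interferon signals, and were named after their values were seen. The other retained genes of the list were not called there, and their differences had both signs. The median of the list was -0.26 in that comparison, beside -0.15 over all probes, and limma called 0 of the 11 in Fn14ko against MRL/+ (3 at an unadjusted p under 0.05) and in MRL/lpr against Fn14ko (1).

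The haemoglobin gene Hba-a1 was higher in MRL/lpr than in MRL/+ (2.37 ± 0.43 on the log2 scale, adjusted p = 0.00427). The other 2 blood genes, Hbb-b1 (0.42, adjusted p = 0.448) and Alas2 (1.40, adjusted p = 0.0631), were not called there. The summed signal of the 3 blood genes was 91.3 to 230 in MRL/lpr, 32.9 to 95.2 in Fn14ko and 24.3 to 46.8 in MRL/+. Most of that sum was Hba-a1 itself, at 88.7 to 225 in MRL/lpr. Of 6 endothelial probes 3 were higher in MRL/lpr compared with MRL/+, and of 8 neuronal probes 1 was lower. Of all probes 15.0% were called there. Limma called 0 of 3 lymphocyte probes (1 at an unadjusted p under 0.05) and 0 of 8 striatal probes (2) in that comparison. At that unadjusted p there were 8017 of all 22419 probes.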
